A study of Mus musculus with 9 samples.

Results

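Endosomal Toll-like receptors are the sensors with which a macrophage reads the nucleic acids that it has swallowed. The genes described here are the receptors Tlr3, Tlr7, Tlr8, Tlr9 and Tlr13, the chaperone Unc93b1, the signaling adaptor Myd88, the endolysosomal transporters Slc15a3 and Slc15a4, and the transcription factor Irf5. They were chosen by name, and all 10 had a row in the deposited table of 13708 genes. All 10 also passed the filter on low values (4 or more samples with 10 or more normalized counts), which left 13594 genes to be tested.

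The samples were macrophages sorted as CD45+ F4/80hi CD11blow cells from the livers of E15.5 mouse embryos and measured by bulk RNA-seq. There were 5 samples of Mrc1Cre Xpr1fl/fl embryos and 4 of Xpr1fl/fl controls, each made from 45 ng of total RNA. Both genotypes carry the floxed alleles of Xpr1, the phosphate exporter of the cell membrane, in which loxP sites flank an exon. The Mrc1Cre allele, which the controls lack, places an improved Cre and a yellow fluorescent protein in the last part of the Mrc1 gene, so that the effects of the inserted allele and of the loss of Xpr1 cannot be told apart. Mrc1 encodes the mannose receptor CD206, which liver sinusoidal endothelial cells make as well as macrophages, and the sort took Tim4hi and Tim4lo cells together. The labels do not say that the samples came from separate embryos, and the p-values measure only the spread between these samples. The totals lay between 26942921.3 and 28309443.1 normalized counts per sample, a range set by the normalization, and the sequencing depth is unknown.

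In the cell, receptors of this class are made in the endoplasmic reticulum, bound by UNC93B1 and carried to endosomes and lysosomes, where proteases trim them before they can signal. TLR3 senses double-stranded RNA, TLR7 and TLR8 sense single-stranded RNA and its breakdown products, TLR9 senses unmethylated CpG DNA and TLR13 senses bacterial ribosomal RNA. TLR3 signals through the adaptor TRIF (Ticam1) and the other receptors through MYD88, and the signal ends in NF-κB and in interferon regulatory factors such as IRF5 and IRF7. Fetal liver macrophages meet host nucleic acid in quantity, because they take up the nuclei that erythroblasts expel.

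The genotype was first checked at the targeted gene. Xpr1 had 1173.5, 1187.4, 1073.7, 1285.3 and 1090.8 normalized counts in Mrc1Cre Xpr1fl/fl samples 1 to 5 and 1780.9, 1859.6, 2239.2 and 2046.7 in Xpr1fl/fl samples 1 to 4. Mrc1 had 5923.1 to 9094.8 normalized counts in the Cre samples, where 1 copy carries the insertion, and 22143.6 to 28348.4 in controls. Neither gene overlapped between the genotypes, so the samples stood where their labels put them. Adgre1, the gene of F4/80, had 46580.9 ± 1402.2 normalized counts (SD, n = 5) in Mrc1Cre Xpr1fl/fl samples against 46008.2 ± 4749.5 (SD, n = 4) in controls, and Csf1r, the receptor for macrophage colony-stimulating factor, had 84995.4 ± 6384.8 and 77102.5 ± 5258.6. Both macrophage genes were abundant in every sample. They belong to a list of 12 macrophage genes, of which 0 rose and 7 fell, as described below.

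Each column of the table is headed by 1 of 3 dates, the meaning of which is not stated in the sources used here. Mrc1Cre Xpr1fl/fl sample 5 and Xpr1fl/fl samples 1 to 3 share the earliest date, Xpr1fl/fl sample 4 has the next and Mrc1Cre Xpr1fl/fl samples 1 to 4 have the latest. A fit that includes the date therefore sets Mrc1Cre Xpr1fl/fl sample 5 against Xpr1fl/fl samples 1 to 3. Its value, called the value with the date as a term, is given below beside each of the 10 genes, and for the other lists as counts of calls, with the values of some of the genes.

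All 5 receptors rose in Mrc1Cre Xpr1fl/fl macrophages. So did Myd88, Slc15a3, Slc15a4 and Irf5, while Unc93b1 fell, which made 9 genes higher and 1 lower at an adjusted p under 0.05 in limma with Benjamini-Hochberg adjustment over all genes tested. Among all genes tested, 21.5% were called higher and 21.6% lower in the same fit. There was no overlap between the genotypes for 8 of the genes that rose and for Unc93b1, where 16.6% of all genes were higher without overlap and 17.5% lower. The median log2 fold change of the 10 genes was 0.49, and that of all genes was 0.005. Once the date was included, 5 were called higher and 0 lower (Tlr9, Tlr13, Myd88, Slc15a3 and Irf5), beside 4.24% and 4.54% of all genes tested, and 9 had a log2 fold change above 0.

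**Figure D1:**
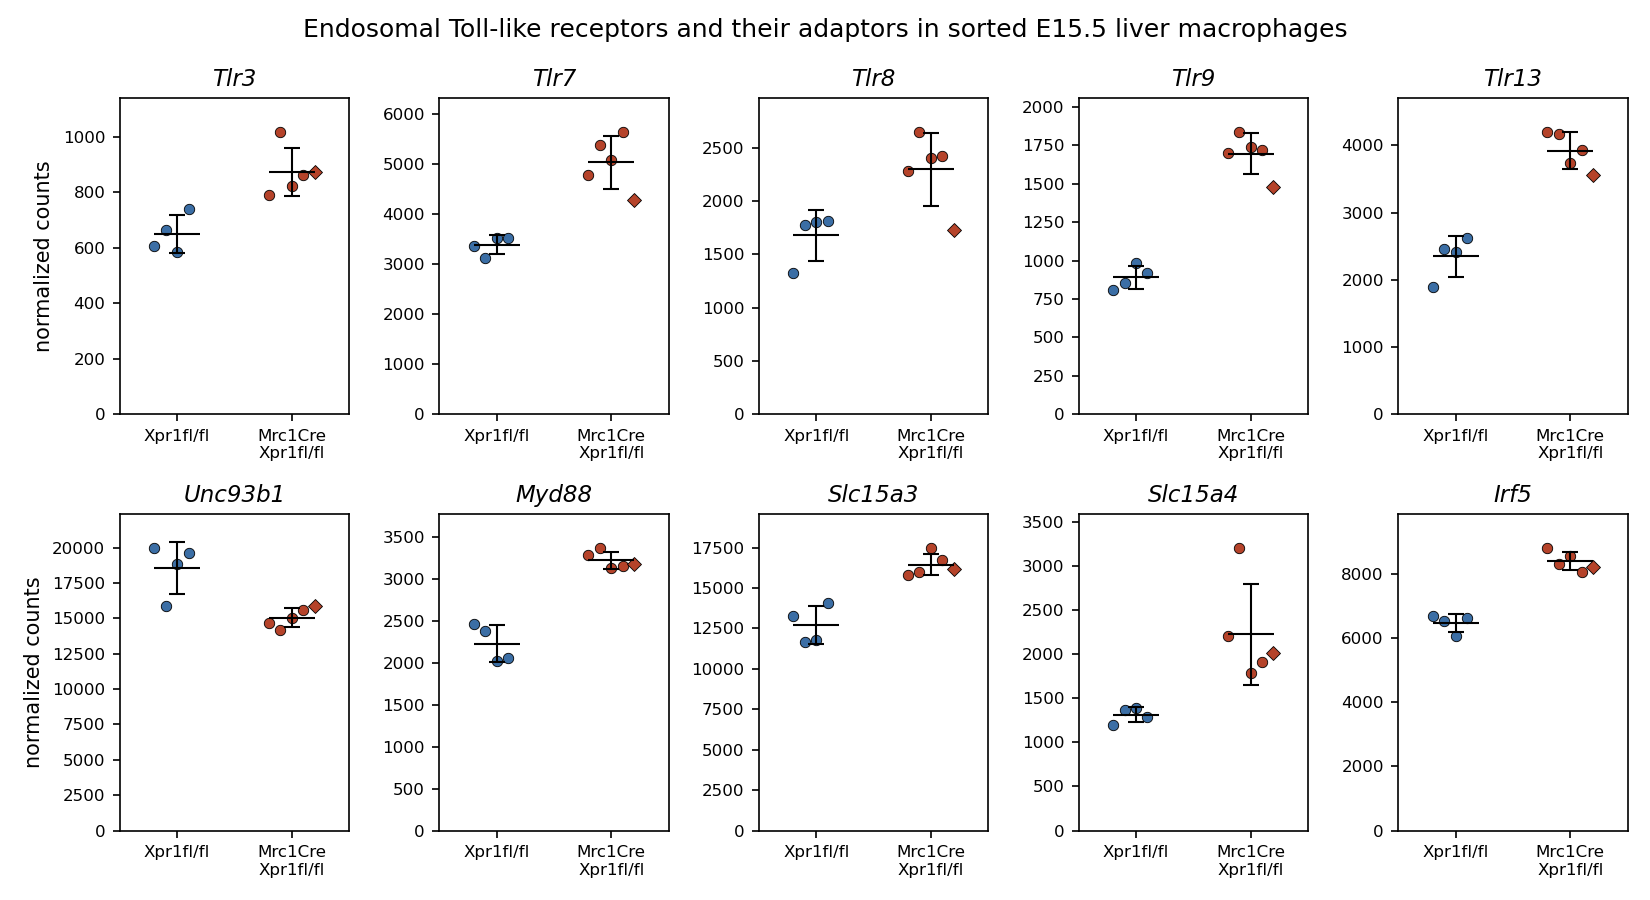
Normalized counts of the 10 genes in each sample on linear axes from 0, with Xpr1fl/fl samples in blue (n = 4) and Mrc1Cre Xpr1fl/fl samples in red (n = 5); horizontal lines and bars are the mean ± SD, and the diamond is Mrc1Cre Xpr1fl/fl sample 5, the sample that shares its date with controls. The red points lie above all blue points for every gene but Tlr8, where the diamond lies among the controls, and Unc93b1, where they lie below.

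Tlr9, the DNA sensor, showed the largest difference of the 10. It lies on the plus strand of chromosome 9 of GRCm39, at chr9:106099797-106104082 (ENSMUSG00000045322). Tlr9 had 1698.3, 1837.2, 1741.4, 1721.9 and 1481.4 normalized counts in Mrc1Cre Xpr1fl/fl samples 1 to 5 and 811.7, 850.9, 981.3 and 917.1 in Xpr1fl/fl samples 1 to 4. The lowest Cre sample, sample 5, was above the highest control. The ratio of the means was 1.905 and the log2 fold change 0.93 (SE 0.08, adjusted p = 1.26e-05 in limma). With the date as a term it was 0.75 (adjusted p = 0.00566 in limma).

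Tlr13, the sensor of bacterial ribosomal RNA, is X-linked, on the plus strand at chrX:105186810-105204533 (ENSMUSG00000033777). Tlr13 had 4201.4, 4167.4, 3739.6, 3935.3 and 3554.2 normalized counts in Mrc1Cre Xpr1fl/fl samples 1 to 5 and 1899.7, 2458.5, 2411.2 and 2621.0 in Xpr1fl/fl samples 1 to 4. Its groups did not overlap, and sample 5 was again the lowest of the Cre samples. The log2 fold change was 0.75 (SE 0.09, adjusted p = 0.0001 in limma), and with the date as a term 0.66 (adjusted p = 0.0191).

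Tlr7 and Tlr8, the sensors of single-stranded RNA, are neighbors on the minus strand of the X chromosome, at chrX:166086758-166113605 (ENSMUSG00000044583) and chrX:166024184-166047325 (ENSMUSG00000040522). Tlr7 had 4793.7, 5377.5, 5077.2, 5648.0 and 4291.9 normalized counts in Mrc1Cre Xpr1fl/fl samples 1 to 5, against 3373.9, 3127.4, 3528.8 and 3527.3 in Xpr1fl/fl samples 1 to 4. All Cre samples were above all controls, with a log2 fold change of 0.57 (SE 0.08, adjusted p = 0.000207 in limma). The value with the date as a term was 0.36 and did not pass (adjusted p = 0.0608 in limma).

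Tlr8 had 2279.2, 2649.7, 2406.6, 2427.0 and 1730.5 normalized counts in Mrc1Cre Xpr1fl/fl samples 1 to 5 and 1325.4, 1771.5, 1803.2 and 1817.9 in Xpr1fl/fl samples 1 to 4. It was the only gene of the 10 whose groups overlapped, since sample 5 lay below 3 of the 4 controls. The log2 fold change was 0.45 (SE 0.13, adjusted p = 0.0142 in limma). It was 0.10 with the date as a term (adjusted p = 0.745 in limma), a value that rests on sample 5. Cre samples 1 to 4, which have the latest date, were above all controls. No control shares that date, so date and genotype cannot be told apart for them.

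Tlr3, the sensor of double-stranded RNA and the receptor that does not use MYD88, lies on the minus strand at chr8:45848702-45864117 (ENSMUSG00000031639). Tlr3 had 789.6, 1017.6, 822.1, 861.6 and 872.1 normalized counts in Mrc1Cre Xpr1fl/fl samples 1 to 5 and 607.8, 665.5, 585.7 and 738.8 in Xpr1fl/fl samples 1 to 4. The groups did not overlap, though Cre sample 1 and control sample 4 lay close together. The log2 fold change was 0.43 (SE 0.09, adjusted p = 0.00342 in limma). Tlr3 was the only receptor for which sample 5 was not the lowest of the Cre samples, and its value with the date as a term was 0.49 (adjusted p = 0.0689).

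Tlr7, Tlr8 and Tlr13 are X-linked and the labels do not give the sex of the embryos. Ddx3y, a Y-linked gene that was looked up after the other values were known, had more than 1000 normalized counts in 3 of the Cre samples and 2 of the controls and fewer than 10 in the other 2 of each genotype. With its log2 value as a covariate the log2 fold changes were 0.57 for Tlr7 (adjusted p = 0.000487 in limma), 0.44 for Tlr8 (adjusted p = 0.0228) and 0.73 for Tlr13 (adjusted p = 0.000181).

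Whether the receptors rose by unequal amounts was tested within samples, as the difference between the log2 values of a pair of genes in the same sample. The 10 pairs of receptors and the pair of transporters were compared between the genotypes by two-sided exact permutation tests over the samples, with p-values adjusted over the 11 pairs. From controls to Mrc1Cre Xpr1fl/fl samples, the log2 difference moved by −0.50 for Tlr3 minus Tlr9, −0.48 for Tlr8 minus Tlr9, −0.36 for Tlr7 minus Tlr9 and −0.30 for Tlr8 minus Tlr13. Over all 9 samples Tlr9 thus rose more than Tlr3, Tlr7 and Tlr8, and Tlr13 more than Tlr8. Each of these 4 pairs had no overlap between the genotypes and an exact permutation p of 0.0159, the smallest that the design allows, which gave an adjusted p of 0.0437. Tlr9 minus Tlr13 moved by 0.18 (exact permutation adjusted p = 0.146), and the groups overlapped for this pair as for the 6 other pairs that did not pass. The control values were shared by all pairs, and each receptor took part in 4 of them. The date was not part of these tests. Within the earliest date, where Mrc1Cre Xpr1fl/fl sample 5 stands alone against 3 controls and no test was made, the same differences were −0.26 for Tlr3 minus Tlr9, −0.66 for Tlr8 minus Tlr9, −0.39 for Tlr7 minus Tlr9 and −0.57 for Tlr8 minus Tlr13.

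**Figure D2:**
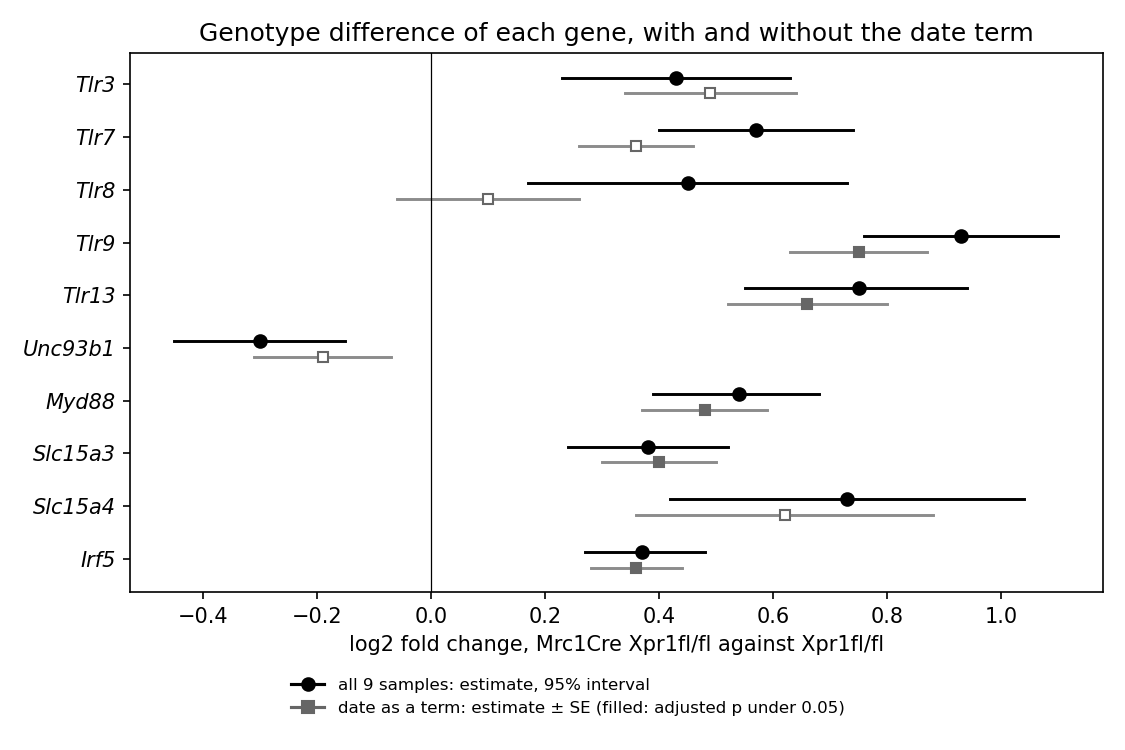
Log2 fold change of each gene, Mrc1Cre Xpr1fl/fl against Xpr1fl/fl (x axis), from limma on log2(normalized count + 1): black circles with 95% intervals from all 9 samples, and gray squares with ± 1 SE from the fit with the date as a term (filled where the adjusted p is under 0.05). Tlr9 lies farthest to the right in both fits, Tlr8 moves to 0.10 with the date term, and Unc93b1 alone lies left of 0.

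Unc93b1, the chaperone that every one of these receptors needs to leave the endoplasmic reticulum, moved the other way. It lies on the plus strand at chr19:3985167-3999341 (ENSMUSG00000036908). Unc93b1 had 14711.1, 14162.5, 15012.4, 15571.8 and 15869.3 normalized counts in Mrc1Cre Xpr1fl/fl samples 1 to 5 and 19972.8, 15906.5, 18833.1 and 19605.1 in Xpr1fl/fl samples 1 to 4. The highest Cre sample and the lowest control differed by little, so that the groups were separate by a narrow margin. The log2 fold change was −0.30 (SE 0.07, adjusted p = 0.00551 in limma), and with the date as a term it was −0.19 and did not pass (adjusted p = 0.334). The 104 bases of its exons that an antisense gene shares, like the shared bases named for other genes below, matter only if strand was not used in the counting, which is not stated.

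Myd88, the adaptor of all of these receptors but TLR3, rose. The gene lies on the minus strand at chr9:119165000-119170486 (ENSMUSG00000032508). Myd88 had 3287.9, 3369.8, 3133.9, 3159.0 and 3180.2 normalized counts in Mrc1Cre Xpr1fl/fl samples 1 to 5 and 2462.7, 2382.5, 2024.1 and 2056.9 in Xpr1fl/fl samples 1 to 4. The Cre samples were close to each other and all above the controls, with a log2 fold change of 0.54 (SE 0.07, adjusted p = 0.000112 in limma) and 0.48 with the date as a term (adjusted p = 0.0291). Its exons share 172 bases with those of Acaa1a on the other strand.

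The 250 bases before the start of the gene were searched on both strands in RefSeq's promoter table, whose build is GRCm38.p6, for 7 of the 10 genes (Tlr7, Unc93b1 and Slc15a3 were not analysed here). The core of the interferon-stimulated response element (GAAANNGAAA) was found in 1 of the 7, that of Myd88, and in 2.98% of all 32851 promoters. The gamma-activated sequence (TTCNNNGAA) was found in Myd88, where it overlaps the other match, and in Tlr8, and in 7.02% of all promoters. A site of the myeloid factor PU.1 (GAGGAAGT, in 2.44% of all promoters) and the E-box of lysosomal genes (CACGTG, in 6.02%) were found in 0 of the 7. These matches are a description of the letters and say nothing about binding in these cells. The stretches that hold the matches are shown on the strand of the gene, Myd88 at chr9:119340024-119340083 and Tlr8 at chrX:167264402-167264460, both on the minus strand, with capitals for the response element core in Myd88 (bases −40 to −31 from the start) and for the gamma-activated sequence in Tlr8 (bases −106 to −98).
Myd88: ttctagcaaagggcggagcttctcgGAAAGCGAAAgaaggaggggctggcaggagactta
Tlr8: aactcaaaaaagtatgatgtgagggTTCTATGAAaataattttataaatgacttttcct

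Slc15a3 and Slc15a4 move peptides, histidine and muramyl peptides out of endolysosomes, and SLC15A4 also holds the adaptor TASL, through which TLR7 and TLR9 reach IRF5. Slc15a3 lies on the plus strand at chr19:10817091-10836726 (ENSMUSG00000024737). Slc15a3 had 15828.1, 16010.8, 17465.7, 16761.1 and 16172.9 normalized counts in Mrc1Cre Xpr1fl/fl samples 1 to 5 and 13286.9, 11647.3, 11807.9 and 14042.0 in Xpr1fl/fl samples 1 to 4. All Cre samples were above all controls, with a log2 fold change of 0.38 (SE 0.06, adjusted p = 0.000822 in limma) and 0.40 with the date as a term (adjusted p = 0.0328). Its exons share 94 bases with Tmem132a on the other strand.

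Slc15a4 lies on the minus strand at chr5:127667297-127709961 (ENSMUSG00000029416). Slc15a4 had 2206.3, 3203.3, 1784.7, 1911.6 and 2017.9 normalized counts in Mrc1Cre Xpr1fl/fl samples 1 to 5 and 1202.4, 1366.7, 1388.8 and 1292.2 in Xpr1fl/fl samples 1 to 4. The groups did not overlap, and Cre sample 2 stood well above the other 4. The log2 fold change was 0.73 (SE 0.14, adjusted p = 0.00191 in limma), and with the date as a term 0.62, which did not pass (adjusted p = 0.166). Within samples the difference between the transporters did not pass (Slc15a3 minus Slc15a4 moved by −0.35 on the log2 scale, exact permutation adjusted p = 0.175). Antisense genes share 208 and 493 bases with its exons. Tasl, its partner, had 300.4 ± 20.5 normalized counts (SD, n = 5) in Mrc1Cre Xpr1fl/fl samples against 231.8 ± 16.3 (SD, n = 4), with a log2 fold change of 0.37 (adjusted p = 0.00714 in limma; 0.41 and adjusted p = 0.155 with the date as a term).

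Irf5, the transcription factor that carries the signal of TLR7 and TLR9 to inflammatory genes, had the tightest estimate of the 10. It lies on the plus strand at chr6:29526276-29541870 (ENSMUSG00000029771). Irf5 had 8814.1, 8325.3, 8575.0, 8082.5 and 8237.8 normalized counts in Mrc1Cre Xpr1fl/fl samples 1 to 5 and 6707.8, 6527.2, 6084.4 and 6631.0 in Xpr1fl/fl samples 1 to 4. The groups were far apart for the size of the change, with a log2 fold change of 0.37 (SE 0.05, adjusted p = 0.000136 in limma) and 0.36 with the date as a term (adjusted p = 0.0314).

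To compare levels between genes, normalized counts were divided by the length of the canonical transcript in kilobases. In controls the level was highest for Unc93b1, at 8195.6 ± 813.5 normalized counts per kilobase (SD, n = 4), followed by Slc15a3 (5386.5 ± 492.9) and Irf5 (2963.7 ± 127.4). Tlr7 (678.4 ± 37.9) and Myd88 (668.3 ± 66.9) came next and overlapped each other, and then Tlr13 (519.6 ± 69.0). Tlr8 (340.1 ± 48.0) and Tlr9 (256.0 ± 21.5) overlapped, as did Slc15a4 (159.5 ± 10.2) and Tlr3 (150.5 ± 15.9), the lowest of the 10.

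In Mrc1Cre Xpr1fl/fl macrophages the order changed at the top and among the receptors. Slc15a3 had 6978.2 ± 283.4 normalized counts per kilobase (SD, n = 5) and Unc93b1 6645.5 ± 299.7, and their samples overlapped. Tlr7 (1008.3 ± 105.2) overlapped both Myd88 (966.2 ± 29.8) and Tlr13 (867.5 ± 61.3), and Tlr9 (487.6 ± 37.7) overlapped Tlr8 (465.4 ± 69.7). Slc15a4 (270.3 ± 69.1) and Tlr3 (202.2 ± 20.3) were again the lowest.

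The sum of the 5 receptors was 1944.5 ± 152.6 normalized counts per kilobase in controls (SD, n = 4) and 3031.1 ± 256.0 in Mrc1Cre Xpr1fl/fl samples (SD, n = 5). Set against Unc93b1 in the same sample, this sum was 0.466, 0.528, 0.456, 0.464 and 0.375 of its level in Mrc1Cre Xpr1fl/fl samples 1 to 5 and 0.197, 0.275, 0.244 and 0.242 in Xpr1fl/fl samples 1 to 4. The ratio did not overlap between the genotypes, which follows from the values of the single genes and was given no test of its own. Tlr9 made up 13.15% ± 0.614 of the sum in controls (SD, n = 4) and 16.1% ± 0.4 in Mrc1Cre Xpr1fl/fl samples (SD, n = 5), and Tlr8 17.4% ± 1.395 and 15.3% ± 1.147. Tlr7 remained the largest part of the sum in every sample, at 32.5% to 38.8% in controls and 31.7% to 35.5% in the Cre samples.

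**Figure D3:**
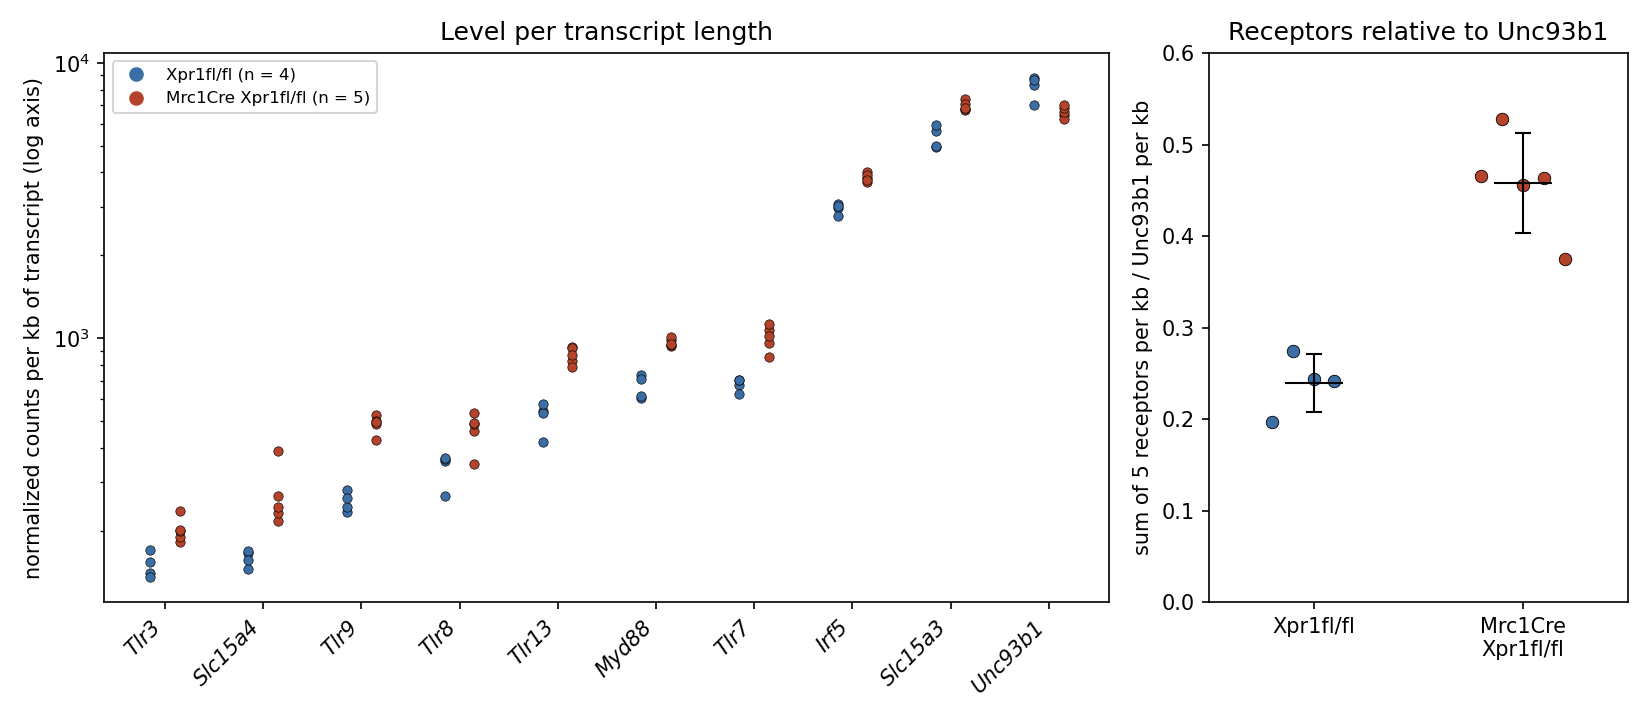
Left, normalized counts per kilobase of canonical transcript (log axis) of the 10 genes in each Xpr1fl/fl (blue) and Mrc1Cre Xpr1fl/fl (red) sample, ordered by the control mean; right, the summed level of the 5 receptors divided by that of Unc93b1 in the same sample (linear axis from 0), with the mean ± SD. Levels span from about 150.5 for Tlr3 to 8195.6 for Unc93b1 in controls, and the ratio lies between 0.375 and 0.528 in the red samples and between 0.197 and 0.275 in the blue ones.

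Other Toll-like receptors and their partners were measured for comparison (13 genes, all tested). Of these, 5 rose and 1 fell, with a median log2 fold change of 0.20, and 7 did not pass. These counts, and those of all lists below, stand beside 21.5% higher and 21.6% lower among all genes tested. A count near these shares does not set a list apart from the other genes. The fit with the date called 2 higher (Tlr1 and Cd180) and 1 lower (Tlr12). Tlr1, the partner of TLR2 for triacylated lipopeptides, rose by 0.62 on the log2 scale (SE 0.06, adjusted p = 2.02e-05 in limma), from 3109.1 ± 191.5 normalized counts in controls (SD, n = 4) to 4785.8 ± 216.0 in Mrc1Cre Xpr1fl/fl samples (SD, n = 5). Tlr4, the receptor for lipopolysaccharide, had the most normalized counts of this list over all samples. In controls alone Ly86 had more (5942.1 against 5429.2), and per kilobase Ly86 was above Tlr4 in both genotypes (5240.0 against 1319.4 in controls). Tlr4 rose by 0.42 with overlap between the genotypes (adjusted p = 0.00281 in limma), and its value with the date as a term was 0.23 and did not pass. Tlr2 itself had a log2 fold change of 0.05 (adjusted p = 0.506). Cd180, a receptor that associates with the product of Ly86, rose by 0.51 (adjusted p = 6.08e-05), and Tirap, the bridge between some receptors and MYD88, by 0.25 (adjusted p = 0.0263; 0.26 and adjusted p = 0.288 with the date as a term).

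Tlr12 was the exception. TLR12 and TLR11 also sit in endolysosomes and also depend on UNC93B1, and they sense profilin of protozoan parasites rather than nucleic acid. Tlr12 had 429.0, 540.7, 594.4, 652.7 and 452.7 normalized counts in Mrc1Cre Xpr1fl/fl samples 1 to 5 and 1651.9, 1177.0, 1875.6 and 1761.1 in Xpr1fl/fl samples 1 to 4. Its groups were far apart, with a log2 fold change of −1.59 (SE 0.15, adjusted p = 2.97e-05 in limma) and −1.76 with the date as a term (adjusted p = 0.00524). Tlr11 was low, at 55.6 ± 6.1 (SD, n = 5) and 44.3 ± 11.1 normalized counts (SD, n = 4), and did not pass (log2 fold change 0.35, adjusted p = 0.182). Neither gene was among the 10, which were chosen as the nucleic acid sensors and their adaptors.

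Of 13 genes listed for the folding and sorting of Toll-like receptors, 9 were higher and 0 lower, with a median log2 fold change of 0.19, and with the date as a term 3 were higher (Rab7b, Lrrc59 and Hsp90b1) and 0 lower. Rab7b, a small GTPase of late endosomes that is known to direct TLR9 and TLR4 to lysosomes, had 727.4, 593.4, 652.8, 624.5 and 680.1 normalized counts in Mrc1Cre Xpr1fl/fl samples 1 to 5 and 260.9, 282.6, 348.3 and 462.2 in Xpr1fl/fl samples 1 to 4. No samples overlapped, and the log2 fold change was 0.98 (SE 0.15, adjusted p = 0.000376 in limma), or 1.20 with the date as a term (adjusted p = 0.00524). Lrrc59, which helps receptors of nucleic acids bind UNC93B1, rose by 0.64 (adjusted p = 3.94e-05) and Hsp90b1, the chaperone gp96 of the endoplasmic reticulum, by 0.55 (adjusted p = 0.000184). Tmed7, a cargo receptor of the early secretory pathway, rose by 0.33 (adjusted p = 0.00148; 0.23 and adjusted p = 0.14 with the date as a term). The AP-3 subunit genes Ap3b1 and Ap3d1 rose by 0.18 and 0.32 (0.06 and 0.28 with the date as a term, adjusted p = 0.74 and 0.0762), and Ap3m1 and Ap3s1 did not pass (adjusted p = 0.221 and 0.861).

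The proteases that trim the receptors and the nucleases that prepare or destroy their ligands did not move in 1 direction. Of 6 proteases, Ctss was higher by 0.19 (adjusted p = 0.0255) and Ctsh fell by 0.20 (adjusted p = 0.0387), and 4 did not pass, among them Lgmn, the asparagine endopeptidase that cleaves TLR9, at −0.14 (adjusted p = 0.122 in limma). With the date included, 0 of the 6 passed (Ctss at 0.12 and Ctsh at −0.29, adjusted p = 0.522 and 0.15 in limma). Of 7 nucleases, 2 rose and 3 fell, and with the date included 1 was higher (Pld4) and 0 lower.

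Pld3 and Pld4 are exonucleases of endolysosomes that digest single-stranded nucleic acid before it reaches the receptors. Pld3 had 6063.4, 6052.7, 7390.8, 7016.1 and 7464.8 normalized counts in Mrc1Cre Xpr1fl/fl samples 1 to 5 and 12072.9, 8926.7, 14327.4 and 12052.6 in Xpr1fl/fl samples 1 to 4. All Cre samples were below all controls (log2 fold change −0.79, SE 0.12, adjusted p = 0.000431 in limma; −0.63 and adjusted p = 0.0959 with the date as a term). Pld4 rose by 0.28 (SE 0.06, adjusted p = 0.0047), with 14954.9 ± 818.2 normalized counts (SD, n = 5) against 12349.6 ± 930.8 (SD, n = 4). Rnaset2b, a lysosomal ribonuclease that makes ligands of TLR8, fell by 0.44 (adjusted p = 0.000175), and its near copy Rnaset2a fell by 0.32 (adjusted p = 0.0118), and their values with the date as a term were −0.35 and −0.32 and did not pass (adjusted p = 0.0608 and 0.234). Reads may be split between these copies, so the value of each is uncertain. Dnase2a, the lysosomal nuclease for DNA, had a log2 fold change of −0.13 (adjusted p = 0.146).

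Downstream of the receptors, 11 of 22 signaling genes rose and 1 fell, and 10 did not pass, with a median log2 fold change of 0.20. In the fit with the date, 4 were higher (Irf7, Irak3, Ikbke and Map3k7) and 0 lower. Irf7, the interferon regulatory factor that interferon itself induces, rose by 1.49 (adjusted p = 3.43e-05), and Ikbke, a kinase of interferon regulatory factors, by 0.88 (adjusted p = 0.000423). Irak3 encodes IRAK-M, which restrains signaling downstream of MYD88, and had 879.6, 966.6, 833.9, 1049.5 and 1425.4 normalized counts in Mrc1Cre Xpr1fl/fl samples 1 to 5 and 453.2, 488.1, 530.4 and 552.4 in Xpr1fl/fl samples 1 to 4. Here sample 5 was the highest of the Cre samples, and the log2 fold change of 1.00 (SE 0.14, adjusted p = 0.000228 in limma) became 1.54 with the date as a term (adjusted p = 0.000942). Traf3, which links MYD88 and TRIF to interferon, rose by 0.61 (adjusted p = 0.000822), but did not pass once the date was included (0.35, adjusted p = 0.174). Ticam1, the adaptor of TLR3, rose by 0.29 (adjusted p = 0.00457; 0.35 and adjusted p = 0.082 with the date as a term), and Irak1 and Irak4, the kinases that bind MYD88, had log2 fold changes of 0.16 and 0.05 and did not pass (adjusted p = 0.164 and 0.45).

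Among target genes of the receptors, 7 of 12 tested were higher and 2 lower, with a median log2 fold change of 0.79. The fit with the date left 2 higher (Ccl4 and Cxcl10) and 1 lower (Il12a). The chemokine genes Ccl5, Ccl4, Cxcl10 and Ccl3 rose by 2.31, 1.55, 1.46 and 0.89, all without overlap between the genotypes. Of these, Ccl5 would not have passed the filter on low values without the Cre samples, so its log2 fold change and its call are uncertain. Ccl5 was low, at 80.2 ± 15.9 normalized counts (SD, n = 5) against 18.0 ± 12.1 (SD, n = 4), and with the date as a term neither it (2.25, adjusted p = 0.0841 in limma) nor Ccl3 (0.74, adjusted p = 0.0814) passed. Tnf rose by 0.76 (adjusted p = 0.00303; 1.00 and adjusted p = 0.0502 with the date as a term). Nfkbia, an inhibitor of NF-κB, fell by 0.23 (adjusted p = 0.0462 in limma), and with the date as a term it was −0.18 and did not pass. Il12a was lower by 1.56 (adjusted p = 0.0071 in limma), at 9.3 ± 2.9 normalized counts (SD, n = 5) against 30.8 ± 12.2 in controls (SD, n = 4). Its groups overlapped, and it passed the filter on low values only through the controls, so its log2 fold change and its calls are uncertain. Ifnb1, the gene of interferon beta, had no row in the table and was not analysed here.

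**Figure D4:**
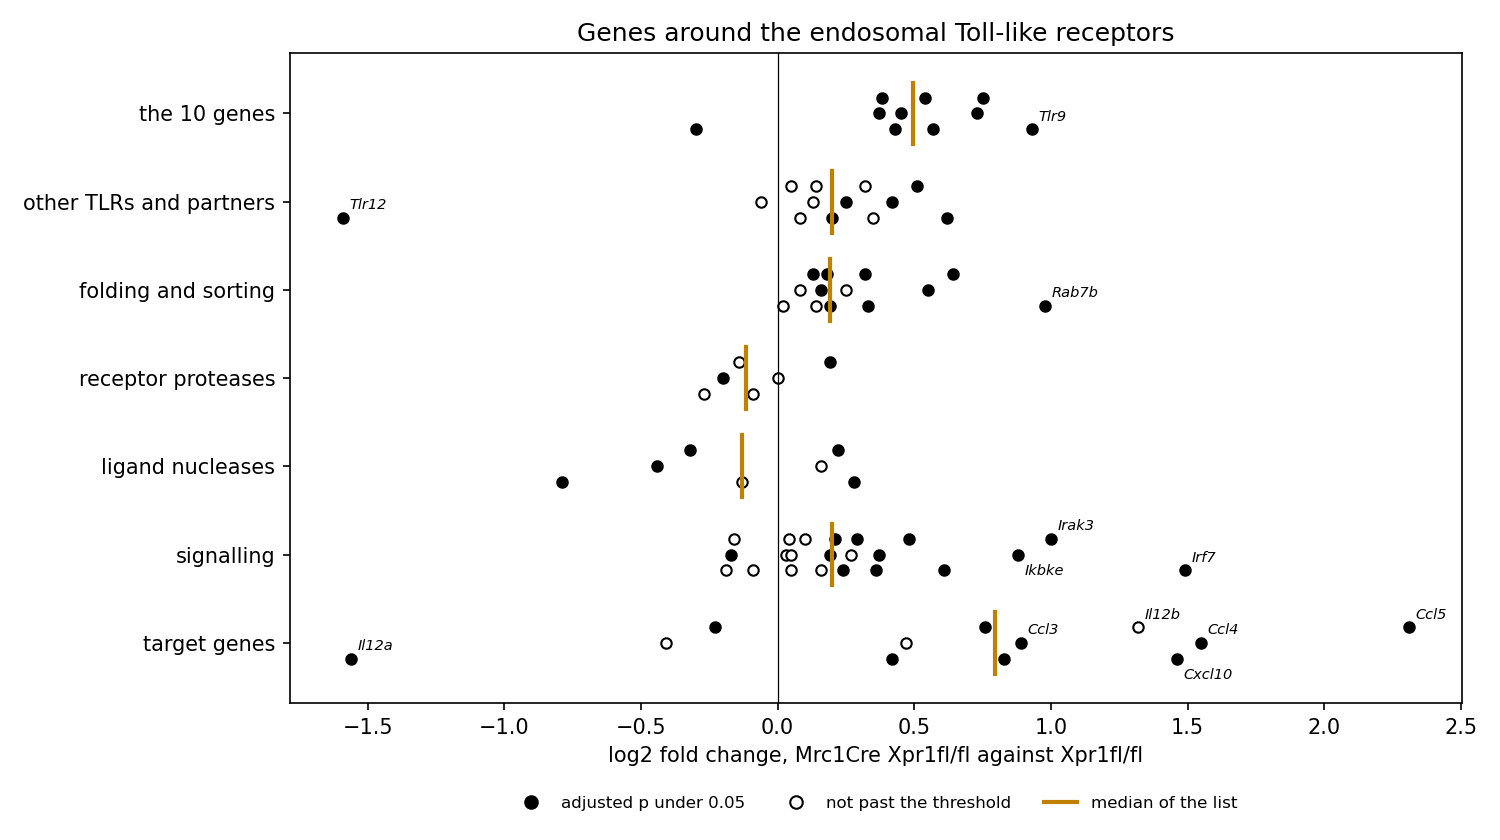
Log2 fold change, Mrc1Cre Xpr1fl/fl against Xpr1fl/fl (x axis), of every tested gene of the 10 genes and of 6 other lists of the pathway (y axis); filled points have a limma adjusted p under 0.05, bars are list medians, and names are given beyond 0.85 in either direction. Most points of the folding and sorting list lie right of 0, the proteases and nucleases lie on both sides, and Tlr12 at −1.59 and Il12a at −1.56 lie farthest to the left. Il12a passed the filter on low values only through the controls, and its groups overlapped. Ccl5, at 2.31, would not have passed this filter without the Cre samples.

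Markers of other cells were read in the same samples, because plasmacytoid dendritic cells and B cells are rich in Tlr7 and Tlr9. In bulk samples, fewer cells of a type and less RNA per cell cannot be told apart. Plasmacytoid dendritic cell genes summed to 6662.8 ± 514.8 normalized counts (SD, n = 5) in Mrc1Cre Xpr1fl/fl samples against 5834.1 ± 432.7 (SD, n = 4), most of it from Bst2, which interferon induces in many cells, and Tcf4. Of 9 tested, 1 was higher (Bst2) and 3 lower (Ccr9, Spib and Ly6d), and Klk1 had no row. Ccr9 (7.7 ± 4.1 and 21.0 ± 7.9) and Ly6d (3.7 ± 4.2 and 26.4 ± 23.0) would not have passed the filter on low values without the controls. Their calls are therefore uncertain. Siglech, the defining gene, had 6.0 to 15.2 normalized counts in the Cre samples and 7.5 to 43.7 in controls, and did not pass (adjusted p = 0.0984 in limma). Of 7 B cell genes tested, 6 were lower and 1 higher (Cd79b, the most abundant, by 0.22), and their sum was 1893.1 ± 146.0 (SD, n = 5) and 2054.1 ± 407.0 (SD, n = 4). Vpreb3, among those lower, would not have passed the filter without the controls either (5.9 ± 3.9 and 32.0 ± 16.3), so its call is uncertain. Ms4a1 and Vpreb1 had no row under these names. In the fit with the date, 0 genes of either list were higher, and 1 of the plasmacytoid dendritic cell genes and 2 of the B cell genes were lower. The part of these cells in the differences of Tlr7 and Tlr9 was not tested.

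Monocyte genes summed to 11160.1 ± 1404.3 normalized counts (SD, n = 5) in Mrc1Cre Xpr1fl/fl samples against 9011.7 ± 1360.9 (SD, n = 4) in controls. The most abundant of them, Plac8, rose by 0.91 (adjusted p = 0.000292) and Itgam by 0.42, while 3 of the 8 fell, among them Ly6c2 and F13a1. Dendritic cell genes summed to 1640.6 ± 143.0 and 1922.2 ± 558.0, with Cd74 the most abundant, and 1 of the 8 tested was higher (Itgax) and 5 were lower; Cd209a had no row. Neutrophil and progenitor genes summed to 8791.0 ± 5481.3 and 29416.7 ± 19603.3, and 5 of 10 were lower and 0 higher. By group means S100a9 (2003.3 ± 1709.8 and 7041.0 ± 5915.7) and Mpo (1900.6 ± 304.5 and 7069.2 ± 1996.7) were the most abundant, and their order differed between samples. With the date included, 1 monocyte gene was lower and 0 higher (Plac8 was at 0.65, adjusted p = 0.0749 in limma), 2 dendritic cell genes were lower and 1 higher, and 5 neutrophil and progenitor genes were lower.

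Of 12 macrophage genes 0 rose and 7 fell, and their sum was 354234.8 ± 26280.2 normalized counts (SD, n = 5) in Mrc1Cre Xpr1fl/fl samples against 475309.5 ± 53097.5 (SD, n = 4) in controls. Cd5l, a secreted protein of tissue macrophages, was the most abundant in controls, at 112152.4 against 77102.5 for Csf1r. In Mrc1Cre Xpr1fl/fl samples Csf1r was higher, at 84995.4 against 60784.5 for Cd5l. Cd5l fell by 0.90 (adjusted p = 0.0017 in limma), and its value with the date as a term was −0.55 and did not pass. Clec4f and Timd4, markers of liver macrophages, had log2 fold changes of −2.04 and −0.85. In the fit with the date, 3 of the 12 were lower and 0 higher. Adgre1, Csf1r, Fcgr1 and Mertk had log2 fold changes of 0.02, 0.14, 0.03 and 0.16 and did not pass (adjusted p = 0.816, 0.155, 0.757 and 0.0944).

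Genes known as markers of erythroid, hepatocyte and endothelial cells, which lie outside the gate, also differed between the genotypes, and which cells their transcripts came from was not tested. The erythroid genes summed to 162723.9 ± 81977.0 normalized counts in Mrc1Cre Xpr1fl/fl samples (SD, n = 5), with 302570.5 in sample 5, and to 548767.9 ± 108671.9 in controls (SD, n = 4), and all 11 tested were lower, with Hba-a1 the most abundant; Ahsp had no row. Hepatocyte genes summed to 39393.5 ± 3809.1 and 73947.3 ± 16865.0, and all 8 were lower, with Trf, which made up 21976.9 and 35179.7 of these sums, the most abundant. Endothelial genes summed to 7336.5 ± 985.8 and 11845.3 ± 1688.9, with Stab2 the most abundant, and 7 of 9 were lower and 0 higher. Emcn, among those lower, would not have passed the filter on low values without the controls (9.9 ± 3.3 and 27.3 ± 13.9), so its call is uncertain. The fit with the date called 2 of the erythroid genes lower (Klf1 and Gata1), 2 of the hepatocyte genes and 1 of the endothelial genes, and the median log2 fold change of the erythroid list went from −1.82 to −0.95. In each of these lists 0 of the genes with a row were at 0 in all samples. This holds for any gene with a row, because the lowest row mean was 5.79, so it says nothing about these lists. Their part in the differences of the receptors was not tested.

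**Figure D5:**
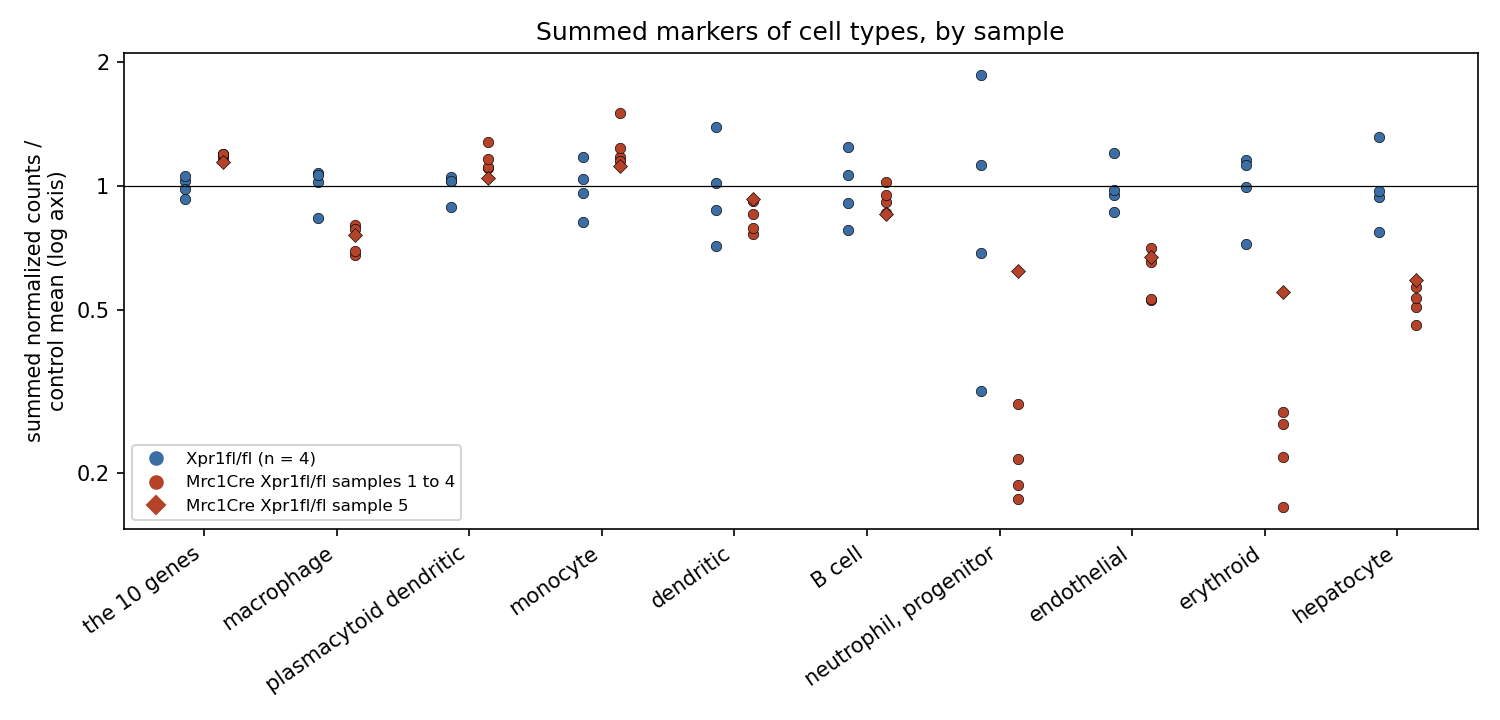
Summed normalized counts of the 10 genes and of 9 marker lists in each sample, divided by the control mean of the list (y axis, log scale); blue circles are Xpr1fl/fl samples (n = 4), red circles Mrc1Cre Xpr1fl/fl samples 1 to 4 and the red diamond sample 5. The 10 genes lie above 1 in all red samples, while the macrophage, endothelial, erythroid and hepatocyte sums lie below all blue samples, and sample 5 is the red sample nearest to the controls for erythroid and neutrophil genes.

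For each receptor, the genes most like it over the 9 samples were taken by Pearson's r of the log2 values, among 11389 genes with at least 50 normalized counts on average. Tlr9 was most like Specc1l and Pik3cb (r = 0.998 and 0.996), Tlr13 like Slc35b4 and Hdlbp (0.993 and 0.99), Tlr7 like Glcci1 (0.985), Tlr8 like Huwe1 and Hipk2 (0.989 and 0.986), and Tlr3 like Or2v1 and Gbp6 (0.971 and 0.970). These samples are divided by genotype, so that genes that differ between the genotypes correlate, and 317 genes had r above 0.95 with Tlr9, 257 with Tlr13, 157 with Tlr8, 88 with Tlr7 and 12 with Tlr3. Tlr3 therefore had the fewest close companions of the 5, and Gbp6, an interferon-inducible GTPase, was among them.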

How the data were processed

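Bulk RNA-seq of 9 samples of sorted E15.5 liver macrophages was used. The authors checked reads with FastQC, quantified them with salmon on GRCm39, imported them with tximport and normalized them with DESeq2, and the deposited signal is a normalized count per gene. Tool versions are not given in the sources used here. The lowest row mean was 5.79, and 0 columns belonged to no mapped sample. Of a sample's values under 10, 26.5% to 49.7% lay near whole multiples of the smallest step (10% by chance), so whole reads were not recovered and no count test was run.

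The genotypes were compared with limma 3.58.1 (trend) in R 4.3.3 on log2(normalized count + 1), a scale that understates changes of low genes, after the filter of 10 normalized counts in 4 or more samples. Benjamini-Hochberg adjustment covered all genes tested, with a threshold of 0.05. In simulated data with 200 genes changed by 1 log2 unit, 180 were called, with 11 of the unchanged genes, among 13450 tested, and with no change 0 of 13440 were called. Pairs of genes were compared by exact permutation tests in SciPy 1.17.1. Coordinates and canonical transcripts came from GENCODE mouse release 39 (GRCm39), which gave a symbol for 13698 of 13708 genes. Correlations between samples were 0.947 to 0.986, and none was counted as a duplicate. Figures were drawn with matplotlib 3.10.9.

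The genes, lists and tests were chosen with earlier results of these data known. The rule for names took the 10 genes, Xpr1, Mrc1, up to 4 genes per pathway list (largest change, no overlap, at least 50 normalized counts on average), the most abundant and missing genes of each list, and the 2 genes most like each receptor. Other genes were named after their values were seen. Some items the rule named are not reported here. The list of other Toll-like receptors was written as surface receptors but holds Tlr11 and Tlr12. Alternatives were other pseudocounts, filters, scalings and limma settings, the date, the replicate block, leaving out each sample, and, chosen after seeing the data, Ddx3y as a covariate and pair differences within the earliest date.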

Additional observations from a re-analysis of the deposited data

Results flagged for a closer look

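Tlr8 in Xpr1fl/fl sample 1 stood apart from the other controls, at 1325.4 normalized counts against 1771.5 to 1817.9, a gap that took 0.906 of the range of the group. It was 1 of the 20 groups of samples looked at (each of the 10 genes in each genotype), and chance gives about 1 in 20. Without this sample the log2 fold change of Tlr8 was 0.34 (adjusted p = 0.0412 in limma).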

How the results depend on the processing

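All 10 genes kept their direction under all 20 alternatives, and every call held except with the date as a term. With the date as a term, 5 were higher and 0 lower, and 1194 of all genes passed, against 5865; Tlr3, Tlr7, Tlr8, Unc93b1 and Slc15a4 lost their calls. The date is nearly confounded with the genotype, and this fit rests on 1 Mrc1Cre Xpr1fl/fl sample, so a lost call does not show that a gene did not differ. In the fits that left out a sample, 4815 to 6081 of all genes passed and the 10 genes kept their calls. Scaling to the 75th percentile moved the median of all genes to −0.074 and the share of higher calls from 49.9% to 35%, with 9 of the 10 genes higher and 1 lower, as before. The lowest and highest log2 fold changes over the alternatives were 0.75 and 0.98 for Tlr9, 0.64 and 0.80 for Tlr13, 0.10 and 0.55 for Tlr8, and −0.38 and −0.19 for Unc93b1. Of the 11 pairs of genes, 4 passed, and 0 passed when any sample was left out, where the smallest exact permutation p is 0.0286 or 0.0357, too large for 4 pairs to pass after adjustment, so this says nothing about stability. The difference between Tlr3 and Tlr8, −0.02, ranged from −0.12 to 0.06 in these repeats and changed sign. Within the earliest date, a value chosen after seeing the data and not tested, it was 0.40, and Tlr3 minus Tlr7 was 0.13 against −0.14, while the 4 pairs that passed kept their direction. The replicate numbers did not pair the samples: deviations of same-numbered samples correlated at −0.033, 0.147, −0.011 and −0.031, and samples did not all correlate best with their own number. With a replicate block, 6226 of all genes passed, and 9 of the 10 were higher and 1 lower. No control has the replicate number 5, so the block takes up Mrc1Cre Xpr1fl/fl sample 5. The log2 fold changes of the 10 genes were therefore those of the fit without that sample (0.62 for Tlr7 and 0.55 for Tlr8 in both). This alternative adds no separate check of direction. Sequencing depth is unknown, so no counting error could be given, and values near 10 normalized counts are the least certain.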
